A study of Mus musculus with 8 samples.

Results

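The 10 genes described here carry peptides to the cell surface on MHC class I molecules: the heavy chains H2-K1 and H2-D1, the light chain B2m, the transporter subunits Tap1 and Tap2, the loading factor Tapbp, the proteasome subunits Psmb8 and Psmb9, the trimming enzyme Erap1 and the regulator Nlrc5. They were chosen by name, of 49943 genes in the RefSeq table used, and their open chromatin was read from every peak within 10 kb of a gene body on the mouse assembly GRCm38. The assay was ATAC-seq, which marks open chromatin by where the enzyme Tn5 can insert adapters, and the cells were BV2, an established mouse microglial line. The 8 libraries formed 4 groups of 2 biological replicates: BV2 cells alone at 21% oxygen, BV2 cells alone below 0.1% oxygen, BV2 cells grown on a layer of GL261, a glioma line of the mouse, at 21% oxygen, and the same co-culture below 0.1% oxygen. Oxygen was set for 16 h, and the labels name no gene deletion or drug in any group. All groups rest on 1 immortalised line, so the replicates are cultures and not animals, and cells were fixed with formaldehyde before the sort. A list of called peaks was at hand for each library, so the data say where a peak passed the caller's threshold and how it ranked within its list. Merging the 8 lists gave 40784 regions, of which 22 lay within 10 kb of a member gene. Every one of the 10 genes had at least 1 of these regions, and 3 regions lay in the windows of more than 1 gene.

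MHC class I molecules show fragments of a cell's own proteins to CD8 T cells. Proteasomes, in which Psmb8 and Psmb9 replace constitutive catalytic subunits after interferon exposure, cut proteins into peptides, the Tap1-Tap2 transporter moves the peptides into the endoplasmic reticulum, Erap1 trims them there, and Tapbp (tapasin) helps to load them onto a heavy chain paired with B2m. Nlrc5 is a transactivator that acts at the promoters of class I genes, and microglia hold class I genes low at rest and raise them after interferon-γ.

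Of the 10 genes, 8 had a promoter sequence in the RefSeq set for GRCm38.p6, running from 250 bases before to 50 after the gene's start, and 5 of these are printed because the peaks described below lie over them. H2-K1 (minus strand, chr17:34000298-34000597) and H2-D1 (plus strand, chr17:35262844-35263143) are shown as a pair of heavy-chain promoters, and B2m (plus strand, chr2:122147437-122147736) as the promoter of their partner. Tap1 (plus strand, chr17:34187306-34187605) is shown because Psmb9 starts in it, and Erap1 (plus strand, chr13:74639603-74639902) because its rank separated the oxygen levels. Each is written 5′ to 3′ on the gene's own strand, and capitals mark the motif matches named in the next paragraph.
H2-K1: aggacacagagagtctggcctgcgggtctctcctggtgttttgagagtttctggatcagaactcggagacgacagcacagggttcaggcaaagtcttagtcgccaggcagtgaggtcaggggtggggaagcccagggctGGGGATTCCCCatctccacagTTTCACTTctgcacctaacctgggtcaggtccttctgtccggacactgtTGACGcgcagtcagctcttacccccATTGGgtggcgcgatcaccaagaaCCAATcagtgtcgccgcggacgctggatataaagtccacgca
H2-D1: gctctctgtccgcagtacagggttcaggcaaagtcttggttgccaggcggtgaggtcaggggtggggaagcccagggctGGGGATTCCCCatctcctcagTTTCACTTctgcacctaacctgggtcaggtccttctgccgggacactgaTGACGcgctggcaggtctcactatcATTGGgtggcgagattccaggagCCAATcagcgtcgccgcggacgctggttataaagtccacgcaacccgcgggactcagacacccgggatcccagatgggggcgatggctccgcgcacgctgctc
B2m: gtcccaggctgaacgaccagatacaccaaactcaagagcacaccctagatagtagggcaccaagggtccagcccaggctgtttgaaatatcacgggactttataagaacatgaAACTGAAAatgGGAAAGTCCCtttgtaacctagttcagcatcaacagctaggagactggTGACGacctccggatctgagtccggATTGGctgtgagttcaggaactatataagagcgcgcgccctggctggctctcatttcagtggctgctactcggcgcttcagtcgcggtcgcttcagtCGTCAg
Tap1: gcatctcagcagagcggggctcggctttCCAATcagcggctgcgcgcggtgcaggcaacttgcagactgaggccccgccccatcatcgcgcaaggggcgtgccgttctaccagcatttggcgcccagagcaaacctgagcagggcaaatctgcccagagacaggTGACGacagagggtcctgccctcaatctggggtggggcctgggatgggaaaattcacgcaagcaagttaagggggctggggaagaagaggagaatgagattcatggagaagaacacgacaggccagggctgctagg
Erap1: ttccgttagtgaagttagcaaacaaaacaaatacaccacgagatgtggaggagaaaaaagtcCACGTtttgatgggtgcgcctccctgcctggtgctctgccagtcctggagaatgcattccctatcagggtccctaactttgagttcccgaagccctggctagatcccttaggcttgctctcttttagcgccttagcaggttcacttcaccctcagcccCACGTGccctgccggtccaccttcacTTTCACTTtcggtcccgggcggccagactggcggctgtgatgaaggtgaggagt

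The motif letters were chosen after the promoters had been read, and were searched on both strands, with the share of all 21263 protein-coding promoter windows of the same length that hold each one given as background. Positions are counted from the gene's start, negative before it. The interferon response core AANNGAAA stood in 4 of the 8 member promoters and in 21.8% of all windows. It lay 90 bases before the start of H2-K1, 150 before H2-D1 and 137 before B2m, and from -4 to 3 at Erap1. A κB consensus, a binding pattern of NF-κB, lay beside it at the first 3 of these genes (111, 171 and 126 bases before the start) and stood in 9.25% of all windows. The core of the cyclic AMP response element, TGACG, which is also the core of the X2 box of class I promoters, stood in 5 of 8 (background 23.6%), at -41 in H2-K1, -101 in H2-D1, -78 in B2m and -86 in Tap1, the last of these shared with Psmb9. The CCAAT box stood in 6 of 8 (background 38.2%). The gamma-activated core TTCNNNGAA stood in Psmb8 alone among the 8, 97 bases before its start (background 7.69%). The hypoxia response core ACGTG stood in Erap1 alone, at -188 and as an overlapping pair on both strands at -30 and -29 (background 20.9%). The PU.1 core GAGGAA was in none of the 8 windows (background 27.4%). No matches of different motifs overlapped within a member promoter, while the κB matches of H2-K1 and H2-D1 overlapped one another. These are matches of letters, and no factor's binding was measured. The promoters of H2-K1 and H2-D1 were alike, with 214 identical bases in 239 aligned (89.5%), and H2-D1 and H2-Q10 had 254 identical in 291 aligned (87.3%). Whether short reads were assigned to the right copy of these near-identical genes was not tested, so the peaks at both heavy chains are uncertain in that respect.

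Facts of the libraries that touch every result come first. The lists held 13333 and 9910 peaks in monoculture at 21% oxygen, 24370 and 26339 in monoculture below 0.1%, 21790 and 21826 in co-culture at 21%, and 29658 and 21633 in co-culture below 0.1%. Depth was estimated from the deposited fold and −log10 p, with a background coverage of 0.76 to 1.45 fragments per position and a median of 18 to 30 fragments at a summit, lowest in the normoxic monoculture libraries. A gene with no peak is therefore one that was not detectable at this depth, not one with closed chromatin. The sort kept cells positive for CD45 (or for GFP, per the labels), and the start of Ptprc, which encodes CD45, had a peak in all 8 libraries. Of 7 myeloid marker genes with a promoter window, 1 and 3 had a peak at the start in monoculture at 21%, and 4 or 5 in each other library, while Aif1 and Itgam had none in any library. Of 9 glioma or glial markers, none had a peak in monoculture at 21%, 1 had one in each library of monoculture below 0.1%, and 3, 1, 3 and 3 had one in the 4 co-culture libraries. Vim was in 6 libraries and Sox2 in 3 co-culture libraries, and Gfap, Olig2, Egfr, Pdgfra and Cspg4 were in none. Nes was in replicate 1 of normoxic and of hypoxic co-culture, and S100b in replicate 2 of hypoxic co-culture, and neither was in monoculture. The part of list length, depth and cells other than BV2 in the results below was not tested, except where a value without them is given.

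Regions of the class I genes had the fewest peaks in normoxic monoculture and the most in the first replicate of hypoxic co-culture. Of the 22 regions, 5 and 4 had a peak in monoculture at 21% oxygen, 13 and 12 in monoculture below 0.1%, 10 and 14 in co-culture at 21%, and 19 and 10 in co-culture below 0.1%. These numbers were 22.7% and 18.2%, 59.1% and 54.5%, 45.5% and 63.6%, and 86.4% and 45.5% of the 22. The same share over all 40784 regions was 30.8% and 23.1%, 57.3% and 62.3%, 51.7% and 51.5%, and 70.7% and 51.5%. The member share lay under the share of all regions in both normoxic monoculture libraries, monoculture hypoxia replicate 2, co-culture normoxia replicate 1 and co-culture hypoxia replicate 2, and over it in the other 3 libraries. In all, 17 of the 22 (77.3%, against 63.8% of all regions) had no peak in either normoxic monoculture library, 4 (18.2% against 15.6%) had one in all 8 libraries, and 6 (27.3% against 26.7%) in 1 library only. When each list was shortened to its strongest 9910 peaks, 11 of the member regions kept a peak in some library, and 4 and 4, 5 and 4, 4 and 6, and 8 and 7 of the 11 were called in the same order of groups. Of the 11, 4 had a peak in hypoxic co-culture alone, and so were among the 11 only through that group. This split was made on the calls themselves, and the same share over all regions of the shortened lists was not computed. Of the remaining 7, the hypoxic co-culture libraries had 6 and 4 and the other 6 libraries 4 to 6. A list so shortened held 48.75% to 49.95% of the 19790 regions merged anew from the shortened lists.

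**Figure D1:**
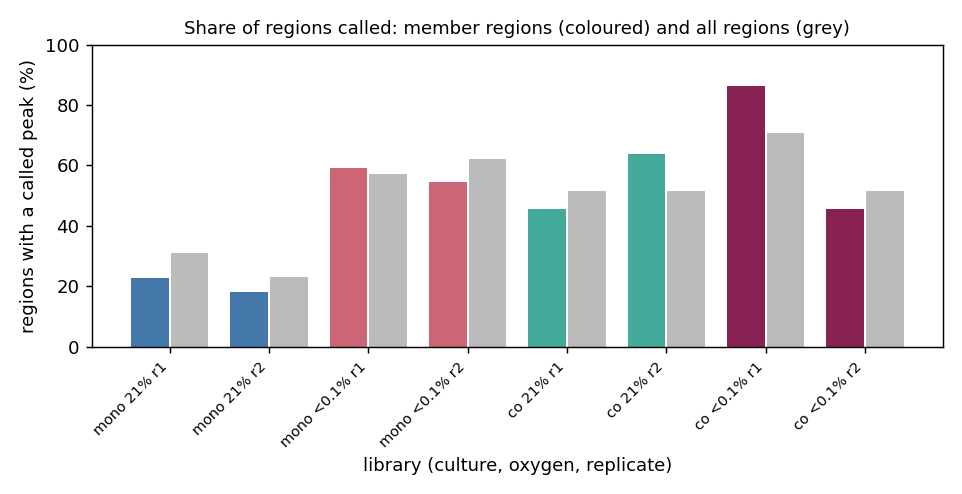
Share of regions with a called peak (%) in each library, for the 22 regions near the class I genes (coloured by group) and for all 40784 regions (grey). The member share ran from 18.2% in a normoxic monoculture library to 86.4% in the first hypoxic co-culture library, and the grey share from 23.1% to 70.7% in the same libraries.

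The share plot shows replicates on opposite sides of the background in every group but normoxic monoculture, where both lay below it. Co-culture hypoxia replicate 1 was the only library with a peak in 3 of the 22 regions (13.6%, against 8.09% of all regions). Values are given below as a within-list percentile, from 0 for the weakest peak of a list to 100 for the strongest by deposited −log10 p. Since the lists differ in length, percentiles from different lists show no change by themselves. The median percentile of the member peaks was 41.9 and 37.1 in monoculture at 21%, 39.3 and 43.8 below 0.1%, 43.7 and 39.5 in co-culture at 21%, and 60.5 and 69.0 in co-culture below 0.1%.

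**Figure D2:**
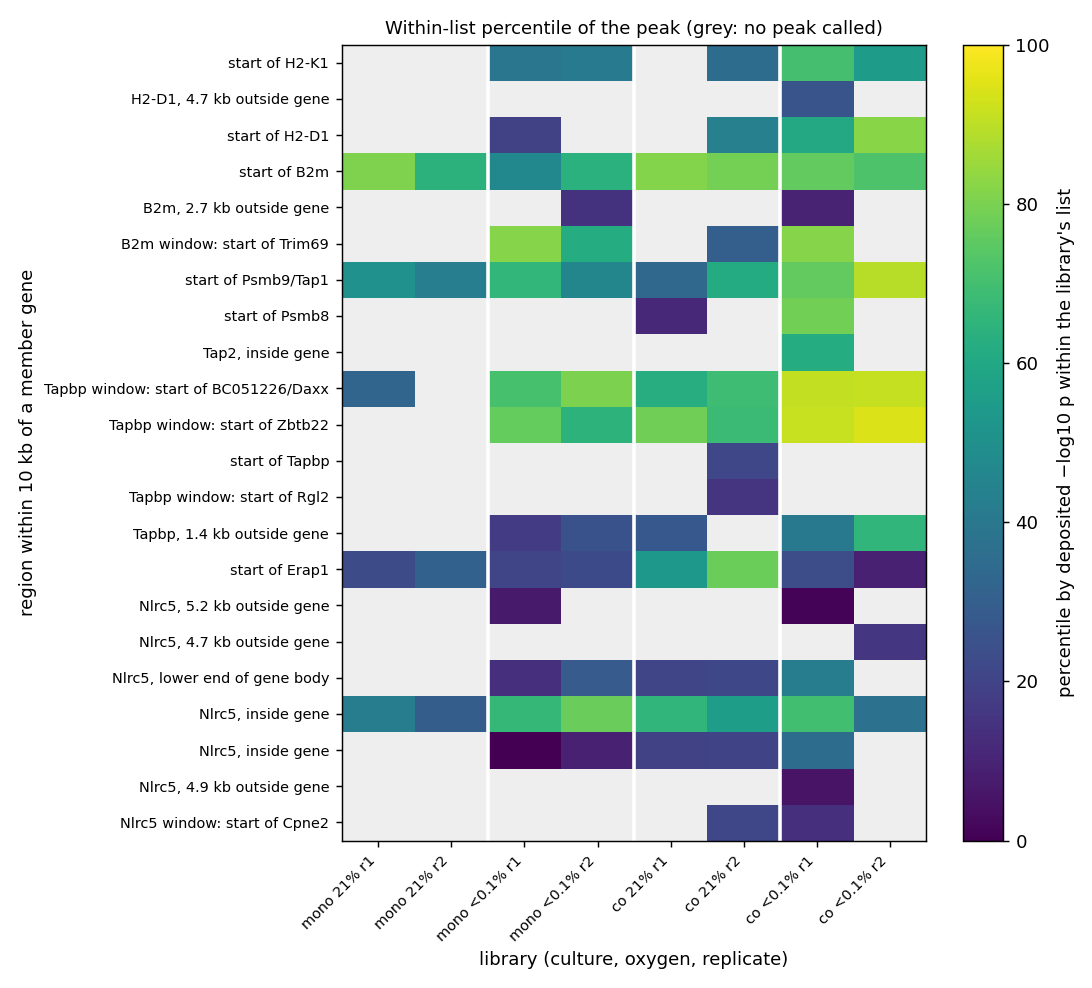
Within-list percentile (colour, 0 to 100) of the strongest peak in each of the 22 regions (rows) and 8 libraries (columns); grey cells had no called peak. The rows filled across all 8 columns are the starts of B2m, Tap1 with Psmb9, and Erap1, and a region inside Nlrc5.

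The percentile map has most of its filled cells to the right of normoxic monoculture, and its rows are taken below by the role of the gene. Among the heavy chains, which bind the peptide, the start of H2-K1 (region chr17:34000019-34000666) had a peak in neither normoxic monoculture library, at percentiles 39.3 and 41.8 in monoculture below 0.1% oxygen, at 35.2 in replicate 2 alone of co-culture at 21%, and at 70.3 and 55.2 in co-culture below 0.1%. All 4 hypoxic libraries and 1 of 4 normoxic libraries thus had it. The 5 summits held 19, 19, 17, 39 and 28 fragments in that order of libraries, and lay at -17 to 6 from the RefSeq start. Each of these peaks covered the κB and interferon matches and both CCAAT boxes of the promoter. In the lists of 9910 peaks H2-K1 was called in both hypoxic co-culture libraries and in no other.

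The start of H2-D1 (region chr17:35262708-35263179), the second classical heavy chain, had a peak in 4 libraries, at percentile 19.5 in replicate 1 of monoculture below 0.1%, 43.7 in replicate 2 of co-culture at 21%, and 60.5 and 82.1 in co-culture below 0.1%. Those summits held 19, 24, 44 and 64 fragments and lay at -166 to -81 from the start. These distances cannot be set against those at H2-K1, because the starts are not matched positions in the 2 promoters. The κB match lies 111 bases before the start used for H2-K1 and 171 before that of H2-D1. Neither normoxic monoculture library had the H2-D1 peak, and both hypoxic co-culture libraries did. The only other H2-D1 region lay 4692 bp outside the gene and was called in co-culture hypoxia replicate 1 alone, at percentile 26.1.

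B2m, the light chain shared by all class I molecules, had a peak over its start (region chr2:122146730-122147903) in all 8 libraries. Its percentile was 80.5 and 64.1 in monoculture at 21%, 46.8 and 63.9 below 0.1%, 81.3 and 78.9 in co-culture at 21%, and 76.0 and 72.1 below 0.1%. The summits held 29 to 64 fragments and lay at -202 to -67 from the start, and every library's peak covered the interferon, κB and first TGACG matches. The remaining B2m regions lay outside the gene: one 2712 bp away was called in monoculture hypoxia replicate 2 (percentile 14.6) and co-culture hypoxia replicate 1 (10.0). The other, at the start of Trim69, was called in both libraries of monoculture below 0.1% (81.8 and 62.0) and in 1 library of each co-culture group (30.4 and 81.7).

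The plot of peaks at the starts shows the B2m summits upstream of the start and the Erap1 summits inside the gene in every library. Of the 10 genes, 7 lie on chromosome 17 within 1348 kb, and 4 of them, in the order Psmb9, Tap1, Psmb8 and Tap2, fill 34.29 kb. Tap1, a transporter subunit, and Psmb9, an immunoproteasome subunit, are read in opposite directions from starts 226 bp apart, so their promoter windows overlap by 275 bp and 1 region (chr17:34187050-34188203) serves both. It had a peak in all 8 libraries, at percentiles 50.4 and 42.9 in monoculture at 21%, 66.3 and 45.9 below 0.1%, 33.9 and 61.6 in co-culture at 21%, and 76.2 and 89.3 below 0.1%. Both hypoxic co-culture libraries were the highest. They also had the most fragments at the summit, 46 and 66, against 14 and 14, 31 and 21, and 16 and 26 in the other groups in the same order.

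The summit of the Tap1 and Psmb9 peak lay elsewhere in co-culture than in monoculture. Measured from the Tap1 start, it stood at 125 and 73 bp in monoculture at 21% oxygen and at 128 and 173 bp in monoculture below 0.1%, all inside Tap1. In co-culture it stood at -143 and -81 bp at 21% and at -57 and -116 bp below 0.1%, all between the starts of Tap1 and Psmb9. The means differed by -224 bp (co-culture minus monoculture) with no overlap and a gap of 130 bp between the nearest summits over all 8 libraries. Within each oxygen level the difference was -211 bp at 21% and -237 bp below 0.1%. A two-sided exact permutation test within oxygen level over 36 relabellings gave p = 0.0556, the smallest it can give. Of the 6375 regions called in all 8 libraries, 180 (2.82%) had summits that did not overlap between the cultures, and 10 (0.157%) had a gap at least as large. Leaving out any 1 library left the difference between -241.2 and -207.9 bp. This measure was chosen after its values had been seen, and the summits rested on as few as 14 fragments. The summits of B2m, Erap1 and the Nlrc5 region called in all 8 libraries overlapped between cultures and, like that of Tap1 and Psmb9, between oxygen levels (background 5.04% not overlapping).

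The start of Psmb8, the other immunoproteasome subunit on chromosome 17 (region chr17:34197421-34198404), had a peak in 2 libraries. It stood at percentile 11.6 with 10 fragments in co-culture normoxia replicate 1, beside the promoter window, and at 78.8 with 42 fragments in co-culture hypoxia replicate 1, where it covered the window and its gamma-activated core. The second hypoxic co-culture library had no Psmb8 peak, so the replicates of that group differed. Tap2, the second transporter subunit, had a region inside the gene (chr17:34210507-34210895) in co-culture hypoxia replicate 1 alone, at percentile 61.8, and its window also took in the Psmb8 start.

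Tapbp, which bridges the transporter and the empty heavy chain, had a peak over its own start (chr17:33919474-33919850) in 1 library only, co-culture normoxia replicate 2, at percentile 21.1 with 21 fragments. The stronger regions in its window lay at the starts of its neighbours. That of Daxx and BC051226 (chr17:33908941-33909872) was called in 7 libraries, at 32.7 in replicate 1 of monoculture at 21%, 70.8 and 80.2 in monoculture below 0.1%, 62.5 and 68.8 in co-culture at 21%, and 90.7 and 91.4 in co-culture below 0.1%. That of Zbtb22 (chr17:33915733-33916202) was called in the 6 libraries outside normoxic monoculture, at 76.4 and 64.8, 78.5 and 68.0, and 91.7 and 94.7. These are peaks near Tapbp by distance, and the lists do not tie them to Tapbp. Inside Rgl2, the next gene, a region was called at 17.6 and 25.3 in monoculture below 0.1%, at 27.5 in 1 library of co-culture at 21%, and at 40.3 and 66.0 in co-culture below 0.1%, and the Rgl2 start was called in co-culture normoxia replicate 2 alone (15.1).

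Erap1, the aminopeptidase that trims peptides to length, lies on chromosome 13, outside the MHC, and its start region (chr13:74638612-74640463, the widest of the 22 at 1852 bp) was called in all 8 libraries. Its percentile was 23.1 and 31.2 in monoculture at 21%, 20.7 and 22.4 below 0.1%, 53.4 and 77.4 in co-culture at 21%, and 23.6 and 9.3 below 0.1%. The 4 normoxic values exceeded the highest of the hypoxic ones except in monoculture replicate 1. The summits lay 36 to 422 bp inside the gene and held 12 to 18 fragments outside co-culture at 21%, where they held 27 and 49. The peaks of 5 libraries covered the pair of ACGTG matches at -30 and -29, and 2 of the 4 hypoxic libraries were among the 5.

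Nlrc5, the transactivator of class I promoters, is a long gene on chromosome 8 with 7 regions in its window, and 1 of them, inside the gene (chr8:94457972-94459312), was called in all 8 libraries. It stood at 41.9 and 29.4 in monoculture at 21%, 66.7 and 77.3 below 0.1%, 65.9 and 55.5 in co-culture at 21%, and 69.5 and 37.4 below 0.1%. The region over the lower-coordinate end of Nlrc5, which also lies in 9330175E14Rik (chr8:94433947-94434587), was called in 5 of the 6 libraries outside normoxic monoculture, at 13.6 and 28.7, 20.8 and 21.6, and 41.9. A further region inside Nlrc5 (chr8:94492105-94492633) was called in the same 5 libraries, at 0.0964 and 9.3, 19.6 and 20.5, and 35.3. The other 4 Nlrc5 regions lay outside the gene and were each called in 1 or 2 libraries, at percentiles of 0.9 to 21.3, so at the weak end of their lists.

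The first comparison asks which regions appear with hypoxia in BV2 cells alone. Of the 22 member regions, 6 (27.3%) were called in both hypoxic libraries and in neither normoxic one, against a background of 17.7% of all regions, and none went the other way (background 0.179%). The 6 were the H2-K1 start, the Trim69 start near B2m, the Zbtb22 start and the Rgl2 region near Tapbp, and the 2 Nlrc5 regions just described. Of the genes' own starts, H2-K1 was the 1 of 8 so gained, against 5.99% of protein-coding gene starts. The normoxic lists were the shorter ones. In the lists of 9910 peaks 1 of 11 member regions was gained (9.09%, against 7.39% of the 19790 regions merged from those lists). In the full lists, of the 12 member regions within 1 kb of a gene body 3 were gained (25%).

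In co-culture, no member region was called in both hypoxic and neither normoxic library (background 6.09%) or the reverse (background 2.05%). Single libraries moved this count and its background together: 1 member region was gained without co-culture normoxia replicate 1 (background 9.77%), 2 without normoxia replicate 2 (9.27%), 1 without hypoxia replicate 1 (9.35%) and 5, or 22.7%, without hypoxia replicate 2 (20.6%). Of the 22, 2 (9.09%) were lost without normoxia replicate 1 (background 6.82%) or without hypoxia replicate 1 (6.44%). At the H2-K1 and H2-D1 starts the peak in co-culture normoxia replicate 2 kept both from the gained set. No member region was called in all 4 hypoxic and no normoxic library (background 2.08%) or the reverse (background 0.0196%).

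Co-culture was next set against monoculture. At 21% oxygen, 3 of 22 member regions (13.6%) were called in both co-culture and neither monoculture library, a share near the background of 12.5%: the Zbtb22 start and the same 2 Nlrc5 regions. None was lost (background 0.181%), and the count was 9 (40.9%, background 21.2%) without co-culture normoxia replicate 1 and 5 (22.7%, background 21.4%) without replicate 2. Below 0.1% oxygen none was gained (background 5.83%) or lost (background 3.76%), with 5 gained (22.7%, background 16.8%) without co-culture hypoxia replicate 2. There was 1 gained without monoculture hypoxia replicate 1 (background 8.24%) or without co-culture hypoxia replicate 1 (8.85%), and there were 3 lost (13.6%, background 11.4%) without co-culture hypoxia replicate 1. Over both oxygen levels none was gained (background 1.98%) or lost (background 0.027%). The hypoxia and co-culture comparisons at 21% share the normoxic monoculture libraries, which had the shortest lists and the lowest depth.

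Peaks were also counted over the genes' own starts alone. A peak overlapped the promoter window of 4 and 4 of the 8 genes in monoculture at 21%, 6 and 4 below 0.1%, 4 and 7 in co-culture at 21%, and 7 and 6 below 0.1%. The share over 17492 protein-coding genes was 25.8% and 21.4%, 35.5% and 35.4%, 38.6% and 41.3%, and 43.1% and 41.0%. With the peak shared by Tap1 and Psmb9 counted once, 3 of 7 starts (42.9%) were called in both normoxic monoculture libraries, monoculture hypoxia replicate 2 and co-culture normoxia replicate 1, and 5 or 6 of 7 in the other 4. The starts of B2m, Tap1 and Psmb9 were called in all 8 libraries, as were 17.2% of all starts, and every one of the 8 was called in at least 1 library, against 51.7% of all starts called in none.

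To compare strength despite unequal lists, peaks were ranked among the 6375 regions called in all 8 libraries, and the ranks were put on a normal scale and fitted with limma across all these regions, with Benjamini-Hochberg adjustment. Only 4 member regions could enter, those of B2m, Tap1 with Psmb9, Erap1 and Nlrc5, since the fit needs a peak in every library. Erap1 ranked at 7.29 and 14.2 in monoculture at 21%, 2.07 and 2.26 below 0.1%, 14.0 and 41.8 in co-culture at 21%, and 2.32 and 0.831 below 0.1%, as percentiles of these common regions. Every normoxic library was above every hypoxic one, and the share of the 6375 regions so separated was not computed. The hypoxic mean was lower by 17.5 percentile points (1.87 against 19.3; difference -17.5, two-sided exact permutation p = 0.0556, the smallest that 36 relabellings allow), and the pooled SD between replicates was 10.1 points. Without co-culture normoxia replicate 2, the highest library, the normoxic mean was 11.8 and the difference -9.97 points.

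In limma the Erap1 rank fell with low oxygen by 1.16 on the normal-score scale (SE 0.24, Benjamini-Hochberg adjusted p = 0.0240), and it was the only one of the 4 member regions past 0.05, against a background of 10.1% of the 6375 regions in either direction and 5.25% lower. That background itself ran from 0 to 924 regions when 1 library was left out, with 0 without monoculture hypoxia replicate 1. The Erap1 call was lost when any 1 of 5 libraries was left out: its adjusted p in limma was 0.0915 without monoculture hypoxia replicate 1, 0.0714 without replicate 2, 0.0779 without co-culture normoxia replicate 2, 0.0705 without co-culture hypoxia replicate 1 and 0.0757 without replicate 2. It held without monoculture normoxia replicate 1 (limma adjusted p = 0.0216), monoculture normoxia replicate 2 (0.0422) or co-culture normoxia replicate 1 (0.0264). Over these 8 fits the difference was -1.37 to -0.94. Ranked by deposited fold in place of −log10 p, the limma adjusted p was 0.186, and the difference kept its sign in all of these. The fall is one of rank among the common regions. In monoculture the deposited fold at Erap1 was 5.43 and 4.92 at 21% oxygen and 5.45 and 5.82 below 0.1%, so it was not lower with hypoxia. In co-culture the fold was 6.55 and 8.02 at 21% and 5.99 and 4.44 below 0.1%.

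**Figure D3:**
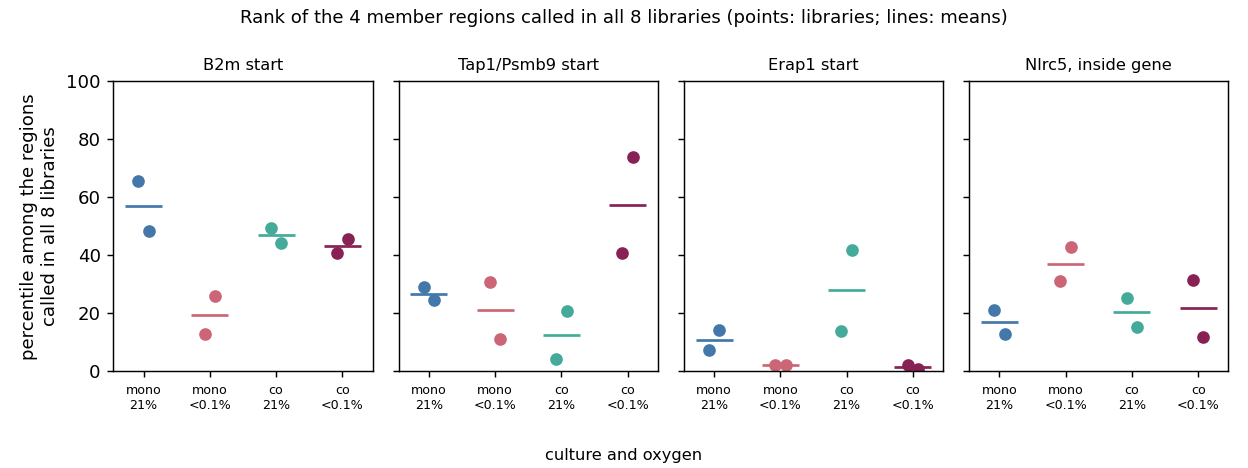
Percentile rank among the 6375 regions called in all 8 libraries, for the 4 member regions called in all 8, by culture and oxygen; points are libraries and lines are group means of 2. At Erap1 the normoxic points, 7.29 to 41.8, all lie above the hypoxic points, 0.831 to 2.32, and at Tap1 with Psmb9 the hypoxic co-culture points, 40.8 and 73.9, are the highest.

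In the rank plot, replicates of B2m lay close together in co-culture and farther apart in monoculture. It ranked at 65.6 and 48.4 in monoculture at 21%, 12.9 and 26.0 below 0.1%, 49.4 and 44.4 in co-culture at 21%, and 40.6 and 45.5 below 0.1%. The monoculture groups did not overlap and the co-culture groups did. The hypoxic mean was lower by 20.7 points (difference -20.7; exact permutation p = 0.111, two-sided), and limma gave a difference of -0.58 with an adjusted p of 0.0994, which missed the threshold.

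The Tap1 and Psmb9 region ranked at 29.0 and 24.6, 30.7 and 11.3, 4.39 and 20.9, and 40.8 and 73.9 in the same order of groups. Hypoxic co-culture was highest, at 57.4 ± 23.4 (SD, n = 2), and normoxic co-culture lowest, at 12.7 ± 11.7. The oxygen difference was 19.5 points (exact permutation p = 0.222, two-sided) with a limma adjusted p of 0.186, and was 7.91 points without co-culture hypoxia replicate 2. The culture difference was 11.1 points (exact permutation p = 0.5), and on the normal-score scale it reversed to -0.012 without replicate 2 of normoxic co-culture and to -0.0057 without replicate 2 of hypoxic co-culture. In co-culture alone the limma difference with hypoxia was 1.46 with an adjusted p of 0.0909 (background 1.16% of regions called; 242 regions without either monoculture normoxia library and 0 without any other). Between co-culture and monoculture below 0.1% oxygen it was 1.06 with an adjusted p of 0.131 (background 4.74%; 0 regions without either co-culture hypoxia library or monoculture hypoxia replicate 2, and up to 805 without another). The interaction of oxygen and culture was 1.70 (SE 0.58) with an adjusted p of 0.433. No region of the 6375 passed 0.05 for the interaction in limma (0%), and 625 had an unadjusted p under 0.05; ranked by fold, 1 passed.

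The Nlrc5 region ranked at 21.0 and 12.7, 31.3 and 42.9, 25.3 and 15.3, and 31.6 and 12.0, so hypoxia and normoxia did not overlap in monoculture and did in co-culture. The oxygen difference was 10.9 points (exact permutation p = 0.222, two-sided; limma adjusted p = 0.355), and 6.37 points without monoculture hypoxia replicate 2 or 16.7 without co-culture hypoxia replicate 2. For culture none of the 4 member regions passed 0.05 in limma, with adjusted p of 0.477 for B2m, 0.642 for Tap1 and Psmb9, 0.555 for Erap1 and 0.611 for Nlrc5, against a background of 10.8% of regions. The count behind that background, 690, ran from 0 to 1011 when 1 library was left out, with 0 without either library of monoculture hypoxia, co-culture normoxia replicate 1 or co-culture hypoxia replicate 2.

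More member regions can be ranked when a comparison uses only the regions shared by its own 4 libraries. Between co-culture and monoculture below 0.1% oxygen, 8 member regions could be ranked among 14386. Of these, 6 stood higher in both co-culture libraries than in both monoculture libraries, while 2, Erap1 and Nlrc5, stood lower. The 6 were the starts of H2-K1, B2m and Tap1 with Psmb9, and the Daxx, Zbtb22 and Rgl2 regions. The Daxx, Zbtb22 and Rgl2 regions all come from the Tapbp window and are not tied to Tapbp, so the 8 are not separate class I genes. The background was 30% of regions higher and 32.2% lower without overlap. The median rank difference was 22.2 points over the 8 and -0.633 over all regions. H2-K1 ranked at 48.3 and 41.3 in co-culture against 22.03 and 23.5 in monoculture, and the Zbtb22 start near Tapbp at 83.3 and 92.1 against 63.7 and 47.5. None of the 8 passed 0.05 in limma on these 4 libraries, where 3.41% of regions did, and 0 regions did when any 1 of the 4 libraries was left out; the adjusted p was 0.158 for H2-K1 and 0.0751 for the Zbtb22 start.

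Between hypoxia and normoxia in co-culture, 6 member regions could be ranked among 13617. The regions of Tap1 with Psmb9, Daxx and Zbtb22 stood higher in both hypoxic libraries and those of B2m and Erap1 lower, against backgrounds of 27.3% higher and 28.9% lower. In monoculture the same comparison ranked 4 member regions among 7002, with Nlrc5 higher and B2m and Erap1 lower (backgrounds 24.6% and 25.4%). Between the cultures at 21% oxygen Erap1 stood higher and Tap1 with Psmb9 lower, of 4 ranked among 6899 (backgrounds 21.6% and 21.2%). In limma on the 4 libraries alone, no region passed 0.05 in any of these 3 comparisons (0%). Without monoculture normoxia replicate 1 or 2 this became 855 or 369 regions for hypoxia in monoculture and 347 or 102 for co-culture at 21%, and it stayed at 0 for hypoxia in co-culture whichever of its libraries was left out.

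A list of 37 other genes of class I presentation, covering loading, proteasome, non-classical class I, regulators and trimming, held 29 with a promoter window. Their starts had a peak in 16 and 13 cases in monoculture at 21%, 20 and 23 below 0.1%, 21 and 22 in co-culture at 21%, and 25 and 26 below 0.1%. The share of all protein-coding starts, given above for the members, was larger outside normoxic monoculture too. With hypoxia in monoculture 3 of 29 starts were gained (10.3%, background 5.99%): H2-T22 and H2-T23, non-classical class I genes, and Irf8, a myeloid transcription factor. In co-culture 2 were gained with hypoxia (6.9%, background 1.64%): H2-T23 again and Psmb10, the remaining immunoproteasome subunit. With co-culture at 21% oxygen 3 were gained (10.3%, near the background of 8.89%), namely H2-T22, Psmb5 and Irf1, a transcription factor that acts downstream of interferon, and with co-culture below 0.1% the single gain was Rela (3.45%, near the background of 3.9%), an NF-κB subunit. None of the 29 was lost in any of these comparisons (backgrounds 0.0858%, 0.652%, 0.0114% and 0.263%).

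H2-T23, which encodes the non-classical molecule Qa-1, was the 1 start of the 29 that every hypoxic library and no normoxic library had (background 0.2% of protein-coding starts). No start of the 8 members or of the 29 was called in the 4 normoxic libraries alone (background 0.00572%), or in the 4 co-culture libraries alone (1.35%) or the 4 monoculture libraries alone (0%). Its percentile was 35.5 and 49.3 in monoculture below 0.1% and 62.4 and 40.0 in co-culture below 0.1%. Irf1 had no peak in monoculture at 21%, 27.7 in replicate 2 alone below 0.1%, 35.9 and 51.8 in co-culture at 21%, and 86.1 and 85.0 in co-culture below 0.1%. Canx and Pdia3, chaperones of class I folding, and Psme2, a proteasome activator, were among the 11 starts called in all 8 libraries, and H2-Q6, Psmb6 and Npepps were called in none.

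Membership of the window had little margin at some edges. The shared Tap1 and Psmb9 region was 9992 bp from Psmb8 and so counted for it too, whereas the Psmb8 start region, 10091 bp from Psmb9, did not count for Psmb9. Near Tapbp the farthest region inside was at 9606 bp and the nearest outside at 11000 bp, and near B2m these were 8208 and 10784 bp.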

How the data were processed

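ATAC-seq had been run on 8 BV2 libraries. The submitters' processing notes name the mm10 build, Trimmomatic 0.36, HISAT2 2.1.0, Picard, SAMtools, deepTools and MACS2 2.1.1.2, and their settings are not given in the sources used here. The authors deposited a separate narrowPeak table for every library and none for pooled replicates. Each list gives the authors' score, a deposited fold ratio of the summit over its background, a deposited −log10 p, a deposited −log10 q (lowest value 2 to 2.08) and a summit offset. They rank peaks within a list only.

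Overlapping peaks, whatever their library, were joined into regions, and a library had a region when a peak of its own touched it by 1 bp or more. Gained regions are those of both libraries in one group and of no library in the group compared with it. Fragments at a summit were solved from the deposited fold and −log10 p under a Poisson model, which worked for 99.91% to 99.95% of peaks within 0.001. Ranks were fitted with limma 3.58.1 (R 4.3.3) on all regions called in every library used, with Benjamini-Hochberg adjustment and a threshold of 0.05; the fits on 4 libraries, the summit comparison, the percentile differences without 1 library and the count with the Tap1 and Psmb9 peak taken once were added after seeing the data. Single values were compared by two-sided exact permutation tests within the other factor, with a smallest p of 0.0556 for 4 against 4 libraries and 0.333 for 2 against 2. Promoter sequences and gene positions are RefSeq's for GRCm38.p6, and Tap2 and Nlrc5 are named only. Where a gene had several promoter windows, any of them counted for a call and the first was used for its sequence and distances.

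The members, the lists of other class I genes and of markers, and the naming of all members were chosen with earlier results of these data known. Alternatives were equal-number lists, a −log10 q of at least 5, leaving out peaks over 10 kb, a peak covering at least 50% of a region, a window of 1 kb, ranking by fold, a replicate block and leaving out each library. Python 3.11.15, pandas 2.3.3, numpy 2.4.6, scipy 1.17.1 and matplotlib 3.10.9 were used.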

Additional observations from a re-analysis of the deposited data

Results flagged for a closer look

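At the shared start of Tap1 and Psmb9 the culture difference in rank among the 6375 common regions was -14.11 percentile points at 21% oxygen and 36.36 points below 0.1% (co-culture minus monoculture), because every co-culture library lay below both monoculture libraries at 21% and above both below 0.1%. Taken singly, on regions shared by the 4 libraries compared, 21.2% of regions stood lower without overlap at 21% and 30% higher below 0.1%. How many of the 6375 regions reversed as this region did was not computed. The limma interaction for this region was 1.70 with a Benjamini-Hochberg adjusted p of 0.433, and over the alternatives the adjusted p ran from 0.281 to 0.859.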

How the results depend on the processing

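Of 31 recomputed counts of member regions whose reported value was above 0, 18 stayed within 1.5 times of it and 13 moved; of 67 reported as 0, 12 moved. Equal-number lists gave 1 of 11 regions (9.09%) gained with hypoxia in monoculture (reported 6; 7.39% of all regions in these lists), with hypoxia in co-culture (0; 5.45%), with co-culture in normoxia (3; 4.88%) and with co-culture in hypoxia (0; 7.39%); a window of 1 kb gave 3 of 12 with hypoxia in monoculture (25%, reported 27.3%). Leaving out 1 library gave 1 to 5 regions gained and 0 to 2 lost with hypoxia in co-culture, 3 to 9 gained with co-culture in normoxia, and 0 to 5 gained and 0 to 3 lost with co-culture in hypoxia. A group of 1 library makes the rule easier to meet. Hypoxia in monoculture gave 6 to 8 gained, while the share of all regions rose too. Without normoxia replicate 1 the gained share was 31.8% of member regions against 27% of all regions, and without normoxia replicate 2 it was 27.3% against 21.3%. Without hypoxia replicate 1 it was 31.8% against 30.2%, and without hypoxia replicate 2 it was 36.4% against 26%. The 1 member region past the threshold for oxygen, Erap1, became 0 when ranked by fold (adjusted p = 0.186), and 0 in equal-number lists and with peaks covering 50% of a region, where it was not among the regions called in all 8; leaving out 1 library gave 0 to 1. Calls over all regions fell from 643 to 53 for oxygen and from 690 to 11 for culture when ranked by fold. Among rank differences, 4 reversed: B2m by culture to -0.0312 by fold, Tap1 with Psmb9 by culture to -0.012 when co-culture normoxia replicate 2 was left out and to -0.00571 when co-culture hypoxia replicate 2 was (range -0.012 to 0.44 over the libraries), and Nlrc5 with hypoxia in co-culture to -0.27 on 4 libraries alone; none of the 4 had passed the threshold. The labels do not say that replicate numbers pair the libraries, and deviations of same-numbered libraries correlated at -0.04 to 0.176; with the replicate block the Erap1 difference was -1.16 (limma adjusted p = 0.0279), the oxygen count 1 and the culture count 0. Depth limits absence: the weakest 10% of peaks rested on 7 to 12 fragments at the summit.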
